A study of Mus musculus with 6 samples.

Results

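The genes described here make, bind, read and remove retinoic acid: the synthesis enzymes Aldh1a1, Aldh1a2 and Aldh1a3, the retinaldehyde reductase Dhrs3, the breakdown enzyme Cyp26b1, the binding proteins Crabp1 and Crabp2, and the receptors Rara and Rarb. They were taken as every non-control probe whose gene name in the scanner files equals one of these 9 symbols, which gave 12 of the 55681 probes on the array, 3 for Rarb, 2 for Rara and 1 for each other gene. The set was assembled after Aldh1a3 had shown a large difference between the groups, so the differences below are descriptions and carry no test. RNA came from the primary somatosensory cortex (S1, the touch area of the neocortex) of 7-day-old (P7) C57BL/6 mice, and each cortex was read on 1 array with a single dye. The control group held 3 cortices with floxed Lhx2 alleles (Lhx2f/f), which the sample labels call wild-type. The cKO group held 3 cortices with Lhx2f/f and Nex-Cre, in which the Nex promoter drives Cre recombinase in postmitotic excitatory neurons, so that other cell types keep Lhx2 and both groups carried the floxed alleles. No label says whether cortices within a group are from different animals, and errors measure only the spread between these samples.

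Retinol is oxidised first to retinaldehyde and then, by the aldehyde dehydrogenases of the Aldh1a family, to retinoic acid. Cellular binding proteins carry the acid, nuclear receptors of the RAR and RXR families bind it and switch target genes, and Cyp26 enzymes clear it. In the developing forebrain the meninges are a known source of retinoic acid through Aldh1a2, the striatum is rich in retinoid receptors, and Rarb is itself a target that carries a response element in its promoter.

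An array reads only the stretch of transcript that its 60-base probe matches, so the ends of the probes on which the results turn are shown, as the last 30 bases, 5′ to 3′, with the polyadenylation hexamer AATAAA in capitals. The number after a gene is the probe's first base in the transcript, as the files give it.
Aldh1a3, 3334: gttcagcaatgaaaaAATAAAgttggacac
Cyp26b1, 4147: gggtgatgtagtctcacattcctaactatt
Crabp1, 404: ttcactgcacacagacacttcttgaggggg
Rarb, 375: ttctgtgtgattctggacctgtagtaatgt
Rarb, 1803: agttcaagtgggaatatagcagagcacagt
Rarb, 3084: ttccatggagtctcctggcaaagAATAAAt
The hexamer lies in the last 30 bases of 4 of the 12 member probes, those of Aldh1a3, Dhrs3, Rarb at 3084 and Rara at 3324, and in 8.16% of all probes. For the Rarb probe at 375 the files list 2 RefSeq transcripts, and for each of the other Rarb probes 4, so the first may miss some Rarb transcripts.

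The Rarb promoter is shown because its retinoic acid response element links the receptor gene to the ligand. The 100 bases before the start site, on GRCm38.p6 at chr14:16575477-16575576 (minus strand, sequence from RefSeq), are printed with the element in capitals.
Rarb: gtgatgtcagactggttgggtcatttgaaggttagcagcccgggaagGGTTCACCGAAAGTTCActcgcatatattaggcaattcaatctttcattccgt
This start site lies inside the gene, 507 kb from its upstream end. The search took any pair of the half-sites AGGTCA or AGTTCA or GGGTCA or GGTTCA in the same orientation with 5 bases between them, on both strands of windows from 250 bases before to 50 bases after each start. The match spans bases 53 to 37 before the Rarb start. It was the only match in the 13 windows found for 7 of the 9 genes, and 0.0974% of all 32851 windows hold one. Aldh1a3 and Crabp2 had no entry. A match is a description of the letters and does not show that the element was in use in these samples.

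Signals are given as the percentage of an array's 75th-percentile signal, and differences as log2 of that ratio, cKO minus control, with the standard error (SE) from the fit over all probes and n = 3 arrays per group. Between 86.7% and 91.1% of non-control spots were well above background, 0 were saturated, and all 12 member probes were well above background on all 6 arrays. Precision is limited by having 3 arrays a group. The targeted gene went against its label: Lhx2 (chr2:38224933-38224992 on mm9) read 1125%, 1134% and 1083% in control replicates 1, 2 and 3 and 2156%, 2336% and 2725% in the cKO replicates. The sources do not state the floxed exons, and a probe beyond them checks nothing. The group is therefore named as the arrays labelled cKO, and every direction rests on the labels. The 12 excitatory neuron markers checked, among them Slc17a7, Neurod2 and Emx1, were well above background on all 6 arrays, as cortex should show. Features of single arrays touch the results below: meningeal markers were low on cKO replicate 2, and striatal markers were high on control replicate 3. Y-linked genes were read on 2 arrays, control replicates 1 and 3, and on no array labelled cKO. Y-linked signal thus partly runs with the groups.

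Aldh1a3, the synthesis enzyme on which the set was chosen, read 2.99%, 2.68% and 4.24% of the 75th percentile in control replicates 1, 2 and 3. It read 100.3%, 41.1% and 29.0% in replicates 1, 2 and 3 labelled cKO. Every array labelled cKO stood far above every control array, and replicate 1 stood highest. The probe (chr7:73535785-73535844 on mm9, minus strand) was 15.2-fold higher by group means (log2 difference 3.93, SE 0.45), and by size this was rank 6 of the 50030 probes tested. In control the signal was dim, at 28.6 to 37.8 intensity units, which is 2.36 to 3.84 times the lowest signal called well above background on the same array. The size of the difference depends on how that dim signal is treated. With normexp background correction it was 5.93-fold with percentile scaling and 5.88-fold with quantile normalization. Normexp started from the mean and background signals of the spots, not from the processed signals. It added an offset of 50 units before taking logs, more than the control signal itself, so a smaller ratio follows in part from the offset. The lowest of the 9 differences between single arrays of the 2 groups was 2.77 on the log2 scale and the highest 5.23. The headers give each array a place on the slide as a pair of numbers, without saying which is the row. The first number was 1 for the 3 control arrays and cKO replicate 1, and 2 for cKO replicates 2 and 3, so it largely runs with the groups. The second number was shared by control replicate 1 and cKO replicate 2, and by control replicate 2 and cKO replicate 3. Within these pairs, which still differ in the first number, the differences were 3.78 and 3.43. Among the arrays with first number 1, cKO replicate 1 stood 4.95 above the control mean.

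Aldh1a1, the second of the synthesis enzymes, lay the other way. It read 243%, 236% and 147% in control replicates 1, 2 and 3 and 122%, 83.9% and 135% in the arrays labelled cKO. The groups did not overlap, although control replicate 3 came close to cKO replicate 3. By group means the probe (chr19:20717764-20717823) was 1.83-fold lower (log2 difference -0.87, SE 0.26). Within the pairs that share the second slide number the differences were -1.53 and -0.81.

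Aldh1a2, the enzyme of the meninges, read 108%, 61.8% and 95.6% in control and 86.0%, 37.9% and 116% in the arrays labelled cKO. The groups overlapped, with both the highest and the lowest array among those labelled cKO, and the log2 difference of -0.25 was smaller than its SE of 0.43. It was 0.22 without cKO replicate 2, 0.30 with array weights and 0.23 with a term for Y-linked signal, so its direction was not fixed. The 6 arrays stood in the same order as for the meningeal markers, 15 genes such as Col1a1, Dcn and Slc6a13, none of them at background. Relative to the control mean, the median of these markers was 0.22, -0.32 and 0.10 in control replicates 1, 2 and 3, and -0.23, -1.16 and 0.23 in the arrays labelled cKO. Aldh1a2 stood at 0.33, -0.48 and 0.15, and at 0.00, -1.18 and 0.44. On both scales cKO replicate 2 was lowest and cKO replicate 3 highest, and control replicate 2 was the lowest control. Summed over the list, the marker signal ranged from 107 to 185 times the 75th percentile in control and from 42.7 to 150.1 in the arrays labelled cKO, and 14 of 15 markers had a lower mean there. The part of meningeal tissue in the Aldh1a2 values was not tested. In bulk tissue, fewer cells of a type and less RNA per cell cannot be told apart.

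**Figure D1:**
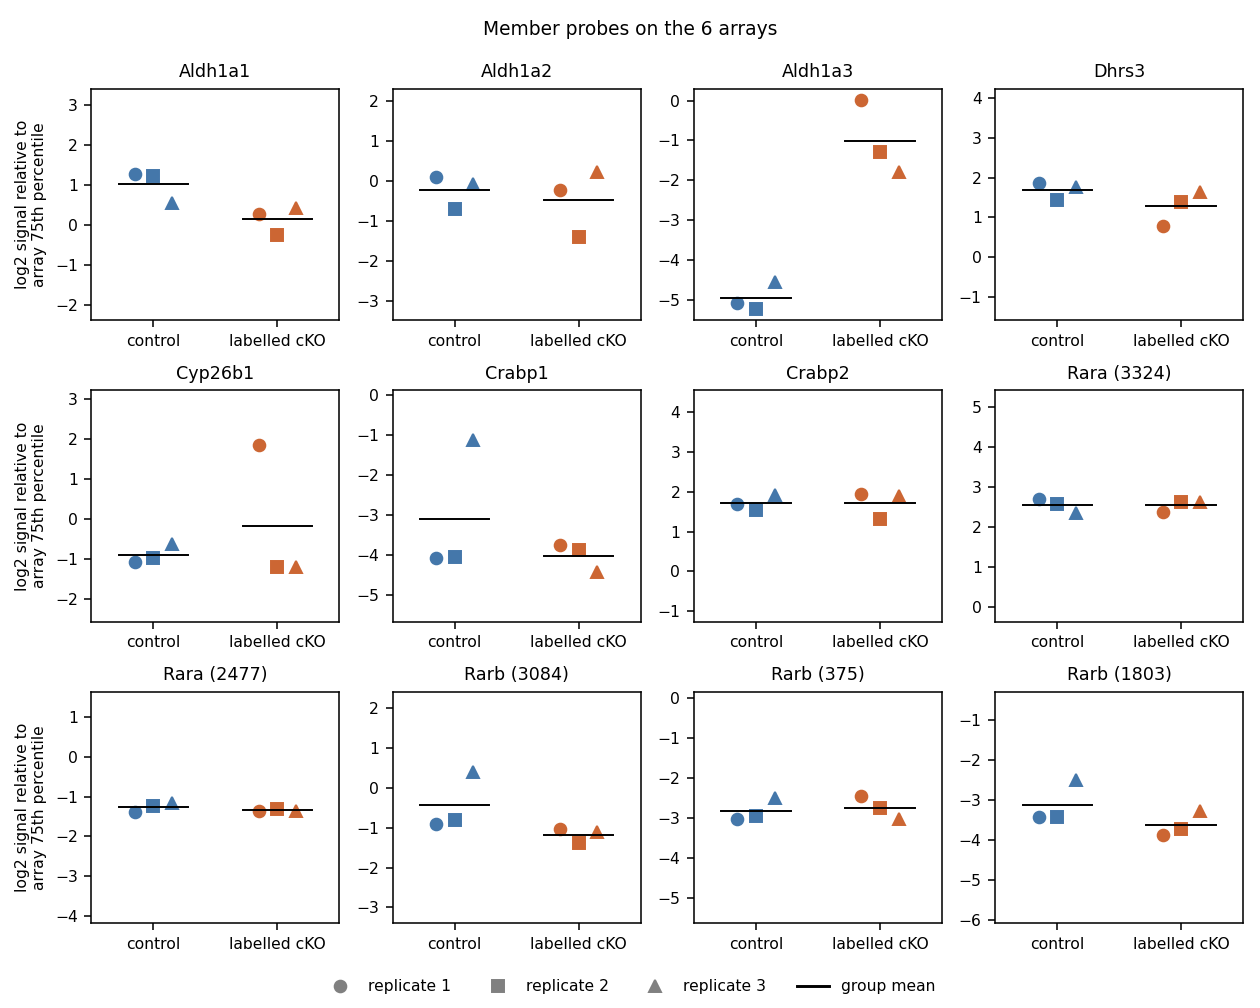
Log2 signal of each of the 12 member probes relative to the array's 75th percentile, by group, with 1 point per array, its shape giving the replicate number, and a bar at the group mean. Numbers in brackets are the probe's first base in the transcript, and every panel spans the same range on the log2 axis. Aldh1a3 is the panel in which the groups lie far apart, while single arrays stand out for Cyp26b1 (cKO replicate 1) and for Crabp1 and Rarb at 3084 (control replicate 3).

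Among the enzymes that limit retinoic acid, Cyp26b1, which oxidises the acid, was high on a single array. It read 47.3%, 50.5% and 64.2% in control, 360.2% in cKO replicate 1, and 43.1% and 43.4% in cKO replicates 2 and 3. Replicates 2 and 3 labelled cKO thus lay below every control array, and replicate 1 was 8.36-fold above the lowest array of its own group. The group difference of 0.71 (SE 0.80; chr6:84521952-84522011) became -0.31 (SE 0.16) without replicate 1. That replicate also had the highest Aldh1a3 signal, so on this array the synthesis and the breakdown enzyme were both at their highest. Among the marker lists, replicate 1 labelled cKO stood at 0.11 for striatum and -0.23 for meninges relative to the control mean. It stood at -0.37 for astrocytes and -0.32 for microglia. The astrocyte median was lower still on cKO replicates 2 and 3, at -0.45 and -0.71.

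Dhrs3, which reduces retinaldehyde back to retinol, read 362%, 273% and 338% in control and 172%, 262% and 313% in the arrays labelled cKO. The groups overlapped, and the log2 difference was -0.41 (SE 0.23; chr4:144517485-144517544). The lowest value belonged to cKO replicate 1, without which the difference was -0.17.

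The binding proteins differed from each other in how evenly they were read. Crabp1 read 5.93% and 5.95% in control replicates 1 and 2 but 45.6% in control replicate 3, and 7.40%, 6.76% and 4.63% in the arrays labelled cKO. A single control array thus carried the group difference of -0.93 (SE 0.78; chr9:54616192-54616251), which was 0.05 without control replicate 3. Crabp2 read 320.3%, 292% and 375% in control and 387%, 250.3% and 371% in the arrays labelled cKO. Its groups overlapped widely, with a log2 difference of 0.01 (SE 0.19; chr3:87757207-87757266). Its lowest array was cKO replicate 2, the array with the lowest meningeal markers. Its highest was cKO replicate 1, where the meningeal median was -0.23 relative to the control mean. The part of meningeal tissue in the Crabp2 values was not tested.

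Of the receptors, Rara was the steadiest member. Its probe at 3324 (chr11:98836197-98836256) read 647%, 599% and 509% in control and 514%, 618% and 620.4% in the arrays labelled cKO, a log2 difference of 0.00 (SE 0.13). Its probe at 2477 (chr11:98835350-98835409) read 38.2%, 42.2% and 44.5% in control and 38.6%, 40.2% and 38.9% in the arrays labelled cKO, a difference of -0.08 (SE 0.10). The groups overlapped on both probes, and both differences were smaller than their SE.

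Rarb was less even, and its probes did not give the same picture. The probe at 3084 (chr14:17263367-17263426) read 53.5%, 56.8% and 132% in control and 48.9%, 38.2% and 46.4% in the arrays labelled cKO. The groups did not overlap, and the log2 difference was -0.73 (SE 0.34), but control replicate 3 stood well above all other arrays, and without it the difference was -0.32 (SE 0.14). The probe at 1803 (chr14:17264648-17264707) read 9.40%, 9.37% and 17.7% in control and 6.84%, 7.57% and 10.4% in the arrays labelled cKO. It gave a log2 difference of -0.51 (SE 0.29), or -0.21 without control replicate 3, and its groups overlapped. The probe at 375 (chr14:17651424-17651483), for which fewer transcripts are listed, read 12.4%, 13.0% and 17.8% in control and 18.3%, 14.96% and 12.2% in the arrays labelled cKO. Its groups overlapped and the difference was 0.07 (SE 0.20). The response element shown above belongs to a start site inside the gene, at chr14:16575476 on GRCm38.p6, with the gene's downstream end at 16430839. On mm9 the probe at 375 lies farther upstream of the probe at 3084 than that start lies from the downstream end. Unless distances differ greatly between the builds, the probe at 375 lies upstream of that start and does not read transcripts from it.

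Control replicate 3, which was highest for Crabp1 and for Rarb at 3084 and 1803, was also highest for striatal markers. Over 10 genes such as Ppp1r1b, Six3 and Tac1, all well above background, the median relative to the control mean was 0.60 on this array, -0.34 and -0.23 in control replicates 1 and 2, and 0.11, -0.59 and -0.44 in the arrays labelled cKO. Ppp1r1b, which encodes a phosphatase inhibitor of striatal projection neurons, read 2.76 in log2 units on control replicate 3 and between 0.77 and 1.67 on the other arrays. The summed striatal signal ranged from 11.98 to 22.7 times the 75th percentile in control and from 10.3 to 13.7 in the arrays labelled cKO, and 7 of 10 markers had a lower mean there. The array order was not shared throughout. On cKO replicate 1 the striatal median was next highest, at 0.11. Relative to the control mean, Crabp1 stood at -0.66 there, Rarb at 3084 at -0.59 and Rarb at 1803 at -0.76, its lowest array. The Rarb probe at 375 was highest on cKO replicate 1, at 18.3%, with 17.8% on control replicate 3. The part of striatal tissue in the Crabp1 and Rarb values was not tested.

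**Figure D2:**
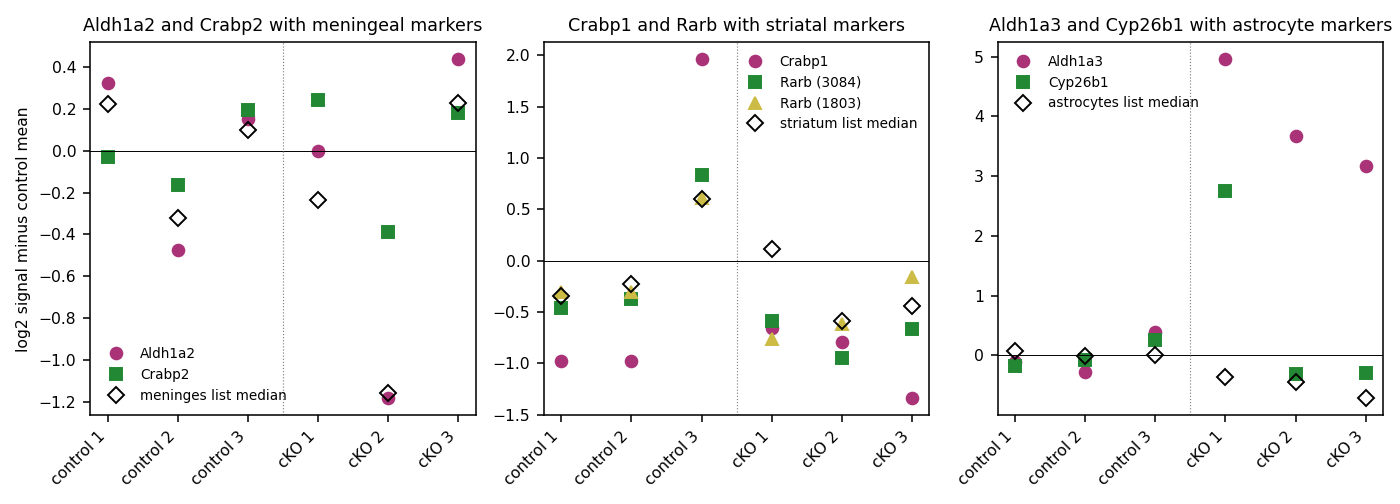
Log2 signal of selected member probes on each of the 6 arrays, minus the mean of the 3 control arrays, with open diamonds for the median of a marker list on the same scale. Aldh1a2 and the meningeal median are both lowest on cKO replicate 2. Crabp1, Rarb at 3084 and 1803 and the striatal median are highest on control replicate 3, and Rarb at 375 is not drawn. Aldh1a3 is above 3 on every array labelled cKO, whereas Cyp26b1 is high on cKO replicate 1 alone.

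Over the 12 member probes, 8 had a lower and 4 a higher mean in the arrays labelled cKO. By limma, 0 of the 12 passed an adjusted p of 0.05, as did 0% of all probes tested, and 2 had an unadjusted p under 0.05, Aldh1a3 and Aldh1a1, where 6.80% of all probes had. The groups did not overlap for 3 probes, Aldh1a3 higher and Aldh1a1 and Rarb at 3084 lower, where 12.7% of all probes did not overlap (6.82% higher and 5.89% lower). Because the set was chosen on this comparison, nothing is read from these counts. The median difference of the member probes was -0.17, and that of all tested probes 0.02, with 95% of all probes within 0.45 of 0.

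**Figure D3:**
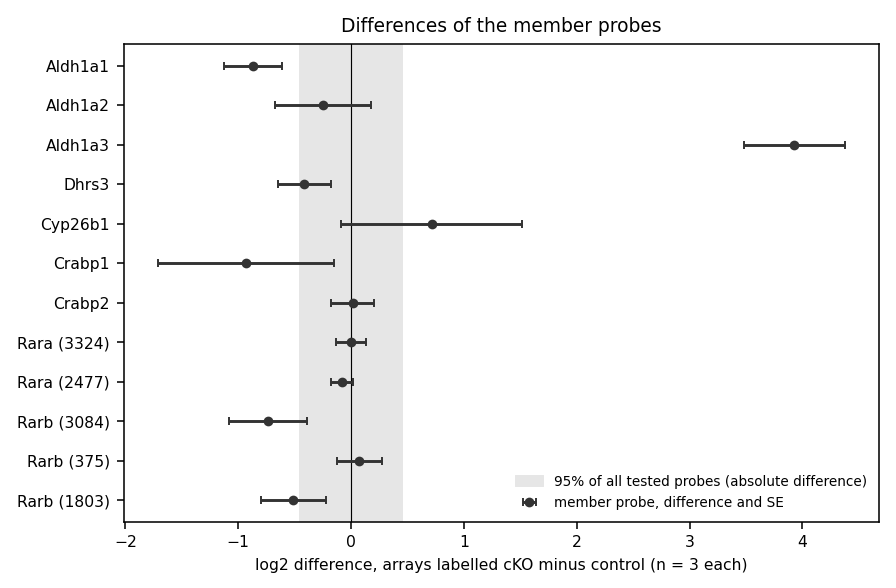
Log2 difference of each member probe, arrays labelled cKO minus control, with bars for the SE (n = 3 arrays per group) and a grey band that holds 95% of all tested probes by absolute difference. Aldh1a3, at 3.93, stands far outside the band, the bars of Cyp26b1 and Crabp1 are the widest, and both Rara probes lie at 0.00 and -0.08.

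Glial markers were lower on the arrays labelled cKO, on which Aldh1a3 was higher and Aldh1a1 lower. All 9 astrocyte markers had a lower mean there (median log2 difference -0.50), with a summed signal of 132 to 158 times the 75th percentile in control and 92.6 to 112 in the arrays labelled cKO. All 10 microglial markers did as well (median -0.64; 71.7 to 74.5 against 58.6 to 61.8), and of 10 endothelial markers 7 did (median -0.13; 20.3 to 27.0 against 22.4 to 24.6). Of 11 interneuron markers 10 had a lower mean (median -0.31), as did 8 of 10 markers of the oligodendrocyte lineage (median -0.17), and excitatory markers split evenly (median 0.08). Every marker in these lists was well above background on all 6 arrays. Lower means were not confined to glia: 7 of 8 choroid plexus markers (median -0.24) and all 4 thalamic markers tested (median -0.11) had them too. Over all tested probes the median difference was 0.02. The part of any of these cell types in the Aldh1a1 and Aldh1a3 differences was not tested.

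The rest of the pathway was compared through 65 further genes, of which 64 were on the array and 59 were tested, each by its brightest probe. By limma, 0 passed at an adjusted p of 0.05 over all probes, where 0% of genes did. An unadjusted p under 0.05 was found for 8 of the 59 (13.6%), against 7.13% of all genes. The median difference was 0.01, against 0.02 over all genes, with 30 genes higher and 29 lower by sign. The groups did not overlap for 5 genes that were higher and 3 that were lower, where the shares over all genes were 7.16% and 6.22%.

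Of 18 genes known to respond to retinoic acid, 0 passed, 9 were higher and 9 lower by sign, and the median was 0.00. Bhlhe40, a transcriptional repressor that was found as a retinoic acid induced gene, read -0.60, -0.53 and -0.79 in log2 units in control and 0.42, 0.30 and 0.10 in the arrays labelled cKO. All 3 arrays labelled cKO lay above every control array, and it was 1.89-fold higher (log2 difference 0.92, SE 0.12), with a limma adjusted p of 0.14 that did not pass. It passed in 4 of 21 other ways of processing, those with normexp under either scaling, with an intensity trend and with array weights. In these 4, between 85 and 176 of all probes passed. In the others Bhlhe40 did not pass, with a limma adjusted p of 0.49 with the replicate block and 0.28 to 0.50 with 1 array left out. Cbln2, which encodes a secreted organiser of synapses, had a difference of 0.54 (limma adjusted p = 0.42), and Rarres1, a retinoic acid receptor responder, had -0.52 (limma adjusted p = 0.51). Neither gene's groups overlapped. The homeobox gene Meis2 had 0.62 and its groups overlapped, since control replicate 3 read 2.92 against 2.17 and 2.15 in the other controls.

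Genes that supply retinol and retinaldehyde were close to the background in both directions, with 0 of 23 passing, 14 higher and 9 lower by sign, and a median of 0.07. The retinol dehydrogenase genes Rdh11 and Rdh5 had differences of 0.32 and -0.29 and did not pass (limma adjusted p = 0.52 and 0.64), and Rdh14 had 0.23 (limma adjusted p = 0.84). Among 17 nuclear receptors and cofactors 0 passed, with 6 higher and 11 lower by sign and a median of -0.02. The smallest p belonged to the orphan receptor gene Nr2f1 (0.34, limma adjusted p = 0.65), the fatty acid receptor gene Ppard (-0.24, limma adjusted p = 0.68) and Fabp5 (0.16, limma adjusted p = 0.90), whose product can carry retinoic acid to Ppard. The retinoid X receptor genes Rxra, Rxrb and Rxrg had differences of -0.03, -0.02 and -0.02. Of the other Cyp26 genes, Cyp26a1 had a difference of 0.01 (SE 0.40), and Cyp26c1 was not well above background on any array.

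**Figure D4:**
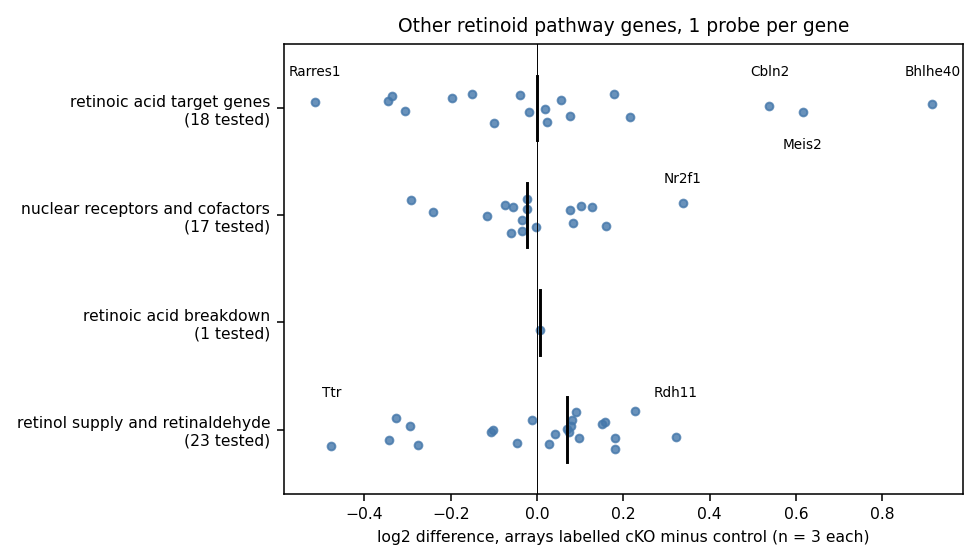
Log2 differences, arrays labelled cKO minus control, of the 59 tested pathway genes outside the set, 1 point per gene, with a bar at the median of each list. The medians lie between -0.02 and 0.07, and Bhlhe40, at 0.92, is the point farthest from 0.

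The genes whose profile over the 6 arrays came nearest to that of Aldh1a3 were Ucn, Tacr1, Tfap2d, Pdzrn4 and Clca3a2, of 18610 named genes compared by the root mean square difference of centred log2 values. The distances ran from 1.14 to 1.40, so none came near to matching it, and group differences were 1.75, 2.04, 1.28, 1.34 and 1.19. Nearness to the Aldh1a3 profile itself selects genes with a large difference in the same direction, so these differences carry no test. Ucn, the gene of the stress peptide urocortin, was highest on cKO replicate 1 at -1.22, against -3.05 and -3.17 on cKO replicates 2 and 3 and -4.46 to -4.06 in control. Tacr1, the receptor gene of substance P, ranged from -3.51 to -2.88 in control and from -1.32 to -1.002 where the label is cKO. Tfap2d, a transcription factor gene of the AP-2 family, was also highest on cKO replicate 1, at -2.39.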

How the data were processed

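Per the file headers, the authors' scanner files hold intensities of single-colour (Cy3) Agilent arrays from Feature Extraction 10.5.1.1, processed within each array with spatial and multiplicative detrending on and surrogate values in use. The authors' deposited matrix holds log2 values whose scale and centring are inferred: it matches quantile-normalized processed signals minus each probe's median. How it was made is not stated in the labels or headers, and it served as an alternative.

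The processed signals were put on a log2 scale relative to the 75th percentile of their array, without control and outlier-flagged spots, with repeated spots averaged. Probes well above background on at least 3 of 6 arrays were fitted with limma 3.58.1 (R 4.3.3; lmFit, eBayes, two-sided), adjusted by Benjamini-Hochberg over all 50030 probes. Lists were read through the brightest probe of each gene, with 28331 probes named by accession from RefSeq (GRCm38.p6) and the others by the file. Probe coordinates are mm9, per the file headers, and no genome was used here.

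The members and lists were chosen with earlier results of these data known. Genes named were all members, Lhx2, up to 3 genes per pathway list with the smallest p and any called, and the 5 genes nearest to Aldh1a3. Meis2, the RXR genes, the Cyp26 genes and the marker genes were named after their values were seen. Alternatives were 2 other scalings, normexp under either scaling, other probe filters and variance models, and gene-level fits. Others were terms for replicate number, second slide number and Y-linked signal, and each array left out. Normexp (offset 50) used the mean and background signals of the spots.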

Additional observations from a re-analysis of the deposited data

How the results depend on the processing

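No probe passed in the comparison as reported, nor without a filter on dim probes, with outlier-flagged spots kept, with a term for the second slide number or Y-linked signal, or on the arrays without Y-linked signal alone. Over all probes, 1 passed with quantile normalization, with the authors' matrix and with the filter on all 6 arrays, 2 in either fit by gene, 6 with median centring, 91 and 85 with normexp under percentile and quantile scaling, 119 with an intensity trend and 176 with array weights. Leaving out 1 array gave between 0 and 10, with 10 without control replicate 2, 2 without control replicate 3 and 1 without cKO replicate 2. Of the member probes 1, Aldh1a3, passed with median centring, normexp with percentile scaling, the intensity trend and array weights, and 0 otherwise. Because the set was chosen on Aldh1a3 in this comparison, nothing is read from its passing. Of the other pathway genes 1, Bhlhe40, passed with normexp under either scaling, the intensity trend and array weights, and 0 otherwise.

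Deviations of same-numbered arrays correlated at -0.17, 0.07 and 0.16, and those of differently numbered arrays at -0.25 to 0.22. With 3 arrays per group, such values cannot decide whether replicate numbers pair the samples. With the replicate block 0 probes passed. Of 249 member differences recomputed, 226 kept their direction. Aldh1a1, Aldh1a3, Dhrs3, Rara at 2477 and Rarb at 3084 and 1803 kept theirs throughout. The cause of the other changes was not tested. Dim signal over background limits Aldh1a3 in control, Crabp1 and Rarb at 1803.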
